A study of Rattus norvegicus with 15 samples.

Results

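DNA repair genes were examined in 15 chemically induced rat mammary tumours, 5 from each of 3 early-life zinc diets. The set was a list of 37 genes covering nucleotide excision, base excision, mismatch and double-strand break repair, damage signalling and direct reversal. A probe on the array could be matched to 28 of them through its transcript accession. Of these, 23 had a probe well above background, as marked by the scanner software, on at least 5 of the 15 arrays, and they are called measured here. These 23 stood among 8378 measured genes.

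The tumours came from female Sprague-Dawley rats, and all 3 groups received the carcinogen 7,12-dimethylbenz[a]anthracene (DMBA), a single dose of 50 mg/kg into the stomach on postnatal day 51. Dams (16 per group) ate chow with 3 mg of zinc per kg (deficient), 35 mg/kg (adequate, called control) or 180 mg/kg (supplemented) from gestation day 10 until weaning on postnatal day 21. Daughters kept that chow until day 51, and every group then ate the adequate chow up to day 180, when the tumours, described as tubular or papillary, were taken. The tumours were therefore compared long after the diets had ended, and the labels do not give the dam of each rat. No group without DMBA was analysed here. Nothing in the labels says how the 5 replicates of a diet relate to separate animals, so p-values measure the spread between these samples.

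Cells repair DNA by several routes. Nucleotide excision repair cuts out bulky lesions such as the purine adducts that activated DMBA leaves, base excision repair replaces oxidised, deaminated or alkylated bases, and mismatch repair corrects replication errors. Double-strand breaks are mended by homologous recombination or by end joining, and signalling kinases link the damage to the cell cycle. Zinc is held structurally by several of these proteins, among them Xpa and Parp1.

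All levels are on the log2 scale after each array's 75th percentile of signal was subtracted, so 0 marks that percentile, and a level is compared only with levels of the same gene, since probes differ in response. The 75th percentile before scaling, used below as the brightness of an array, ran from 50.7 to 177 signal units. The 3 dimmest arrays were deficient 1, deficient 4 and control 2 (numbers are replicates). Of 6 luminal epithelial markers, 5 (Epcam, Krt8, Krt18, Krt19, Cdh1) were well above background on every array, and Elf3 on 2 arrays. The mean level of those 5 lay between 4.64 and 5.50 in each tumour, so the keratins and adhesion genes that mark this epithelium were present. The mean level of the erythrocyte markers (Alas2, Hbb, Hbb-b1, Ahsp; 4 of 6 measured) was 0.85 to 3.02 in deficient, -1.39 to 1.35 in control and -1.16 to -0.19 in supplemented tumours. The part of blood content in the differences below was not tested.

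Measured genes were unevenly spread over the repair routes. Nucleotide excision repair had 4 of 9 listed genes (Xpa, Xpc, Ercc1, Ercc3), base excision and single-strand break repair 9 of 11 (Ogg1, Apex1, Ung, Mutyh, Mpg, Parp1, Xrcc1, Lig1, Polb) and mismatch repair 1 of 2 (Pms2). Homologous recombination had 4 of 7 (Brca2, Rad50, Mre11, Nbn), end joining 2 of 3 (Xrcc5, Xrcc6), damage signalling 2 of 4 (Atm, Chek2) and direct reversal its 1 gene (Mgmt). No probe was matched for Ercc4, Ercc5, Ddb1, Ddb2, Lig3, Msh6, Rad52, Prkdc or Atr, which are not analysed here. The genes with a probe that was too dim were Ercc2 (well above background on 4 arrays), Chek1 (2), Neil1 (1), Rad51c (1) and Brca1 (0). Just inside the limit stood Mutyh and Atm with 9 arrays each. Xpc, Ung and Chek2 reached 11 arrays, Mre11 12 and Brca2 13, and the other 16 genes all 15. The first 7 of these genes thus have levels near background on some arrays.

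No DNA repair gene differed between diets after adjustment for all 21011 tested probes (limma, Benjamini-Hochberg, threshold 0.05): 0 of 23 in each of the 3 pairwise comparisons and 0 in the F test over the diets. The share of all probes called at that threshold was also 0 in each. At an unadjusted p under 0.05, 0 of 23 members passed for deficient against control, where 3.91% of all probes did. For supplemented against control 1 member passed (Mutyh), against 1.98% of probes, and for supplemented against deficient 0 passed, against 7.05%. The lowest unadjusted p of a member in the F test was 0.0758 (Mutyh; 4.03% of probes were under 0.05), with adjusted p-values of the members from 0.990 to 0.999. In none of the 3 comparisons were the 5 tumours of one diet apart from the 5 of the other for any member, where 0.39%, 0.357% and 1.5% of probes were. Because the tumours are bulk tissue, fewer cells of a type and less RNA per cell cannot be told apart in any of these values.

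**Figure D1:**
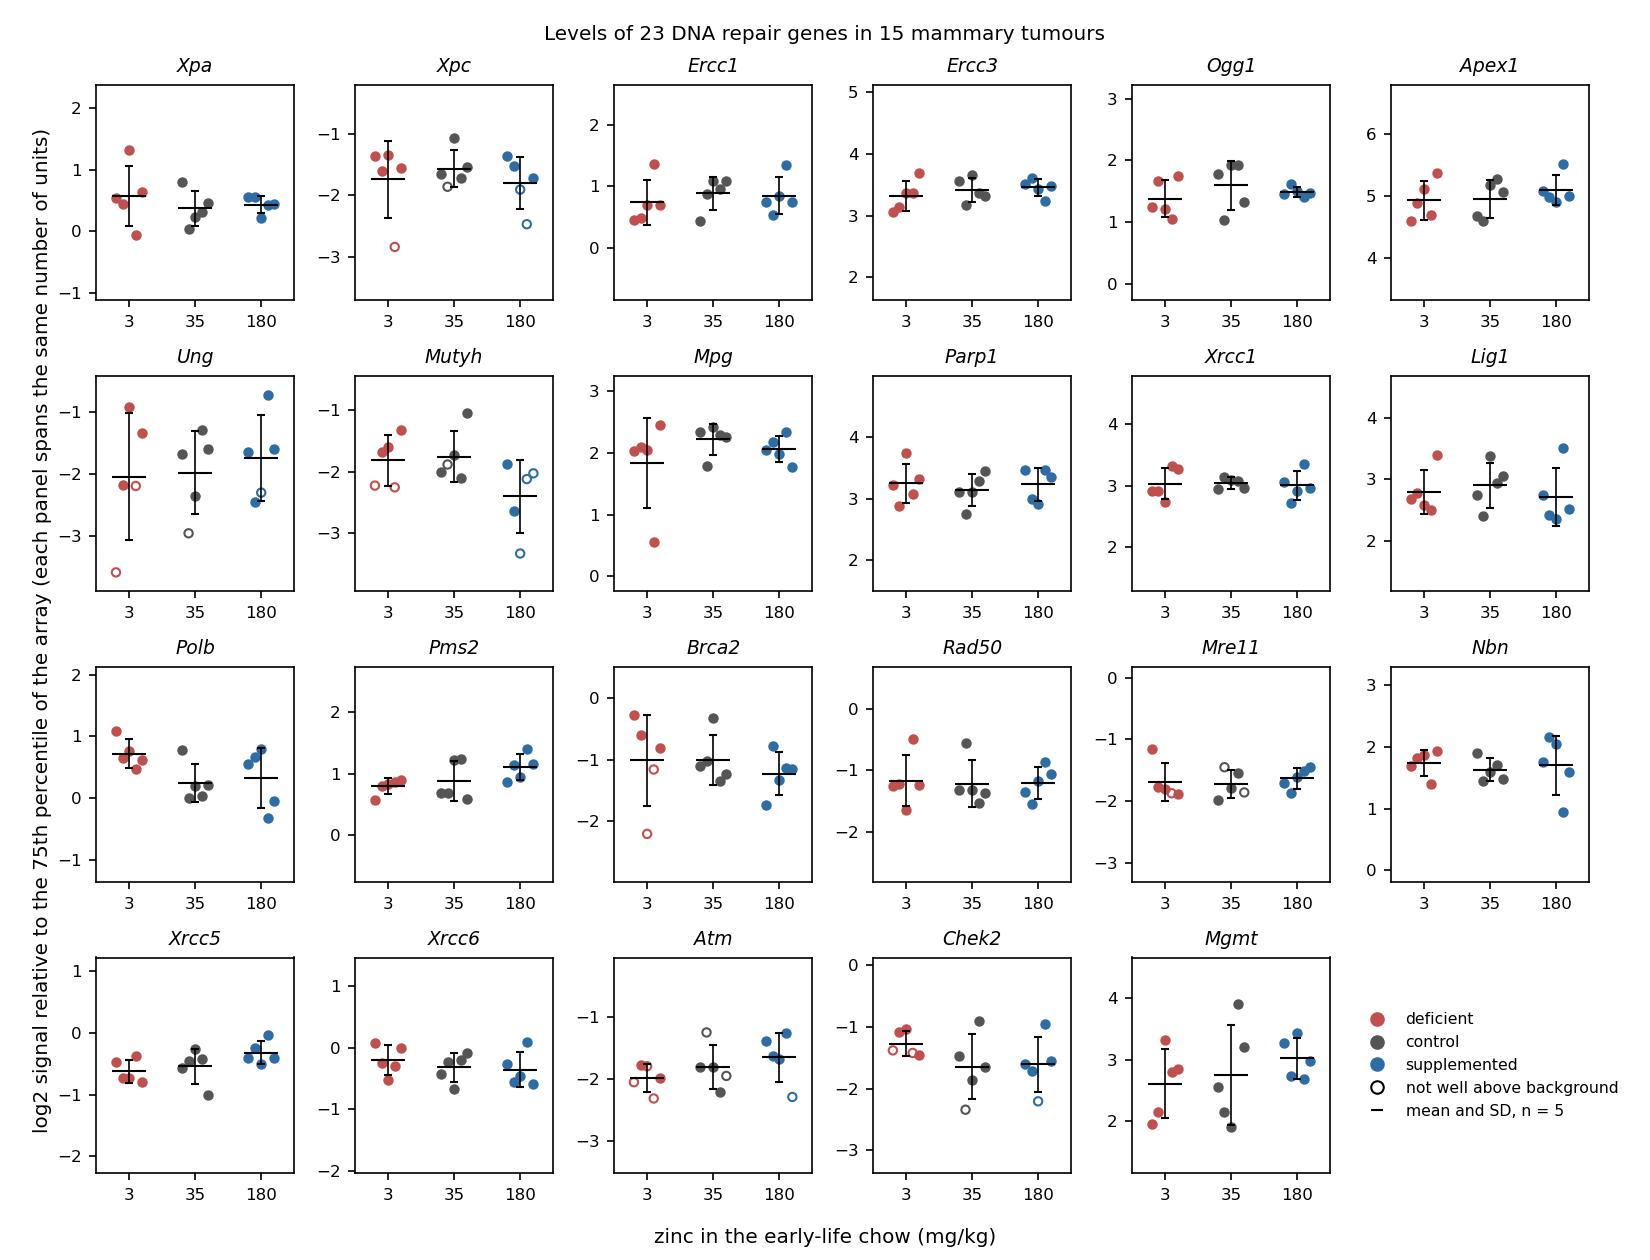
Log2 level, with 0 at the array's 75th percentile (vertical axes, each spanning the same number of log2 units) of the 23 measured DNA repair genes in single tumours, by zinc in the early-life chow in mg/kg (horizontal axes). Points are tumours, hollow where the probe was not well above background, with the mean and SD of 5 tumours per diet. The diets overlap in every panel, and Ung, Mgmt, Brca2 and Mutyh show the widest scatter.

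The central tendency of the set stayed near 0. Deficient minus control had a median log2 difference of -0.06 over the 23 genes, with 8 higher and 15 lower, beside 49.3% of all probes higher. Supplemented minus control had a median of 0.05 with 14 higher and 9 lower, beside 48.8% of probes higher. The median of supplemented minus deficient was -0.01 with 11 higher and 12 lower, beside 49.9%. Medians over all probes lay within 0.01 of 0 in each comparison (-0.0046, -0.0067 and -0.0010), and the 3 comparisons share tumours. The width of the intervals says what size of change the design could have missed. The 95% half-width of a member's difference ran from 0.33 to 0.98 log2 units with a median of 0.46, a 1.37-fold change. Intervals lay wholly within a 2-fold change either way for 22, 20 and 20 of the 23 genes in the order above. For those genes smaller differences could have been missed with 5 tumours per diet. The intervals are not adjusted for the number of probes, so the adjusted test could also miss differences larger than the half-widths.

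**Figure D2:**
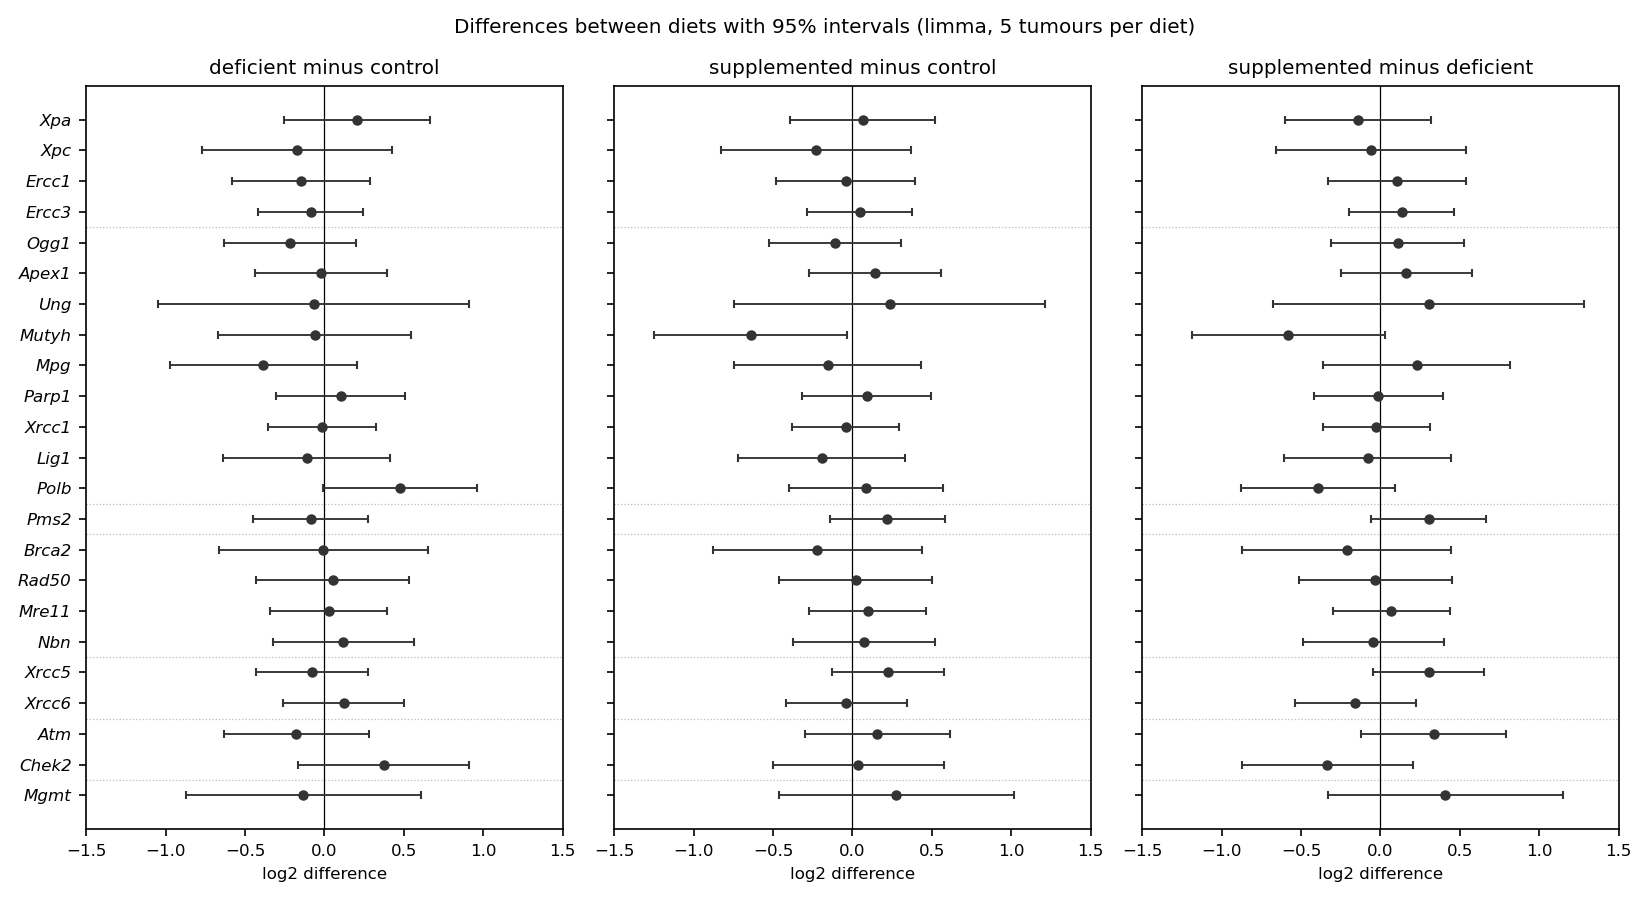
Log2 differences between diets (horizontal axes) for the 23 measured DNA repair genes, ordered by repair route, with 95% intervals from limma, 5 tumours per diet. The interval of Mutyh for supplemented minus control, from -1.25 to -0.03, is the only one that does not include 0.

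Nucleotide excision repair showed no difference that passed the test. The median difference of its 4 genes was -0.12 for deficient and 0.00 for supplemented tumours, each minus control, and 0.02 between supplemented and deficient tumours. Xpa, which verifies damage within the excision complex, measured 0.53, 0.44, 1.31, -0.05 and 0.64 in the deficient tumours. It measured 0.79, 0.04, 0.23, 0.32 and 0.46 in control and 0.55, 0.55, 0.21, 0.42 and 0.44 in supplemented tumours. Deficient replicate 3 alone stood above the highest control. The difference of deficient from control was 0.21 (95% interval -0.25 to 0.66, adjusted p = 0.987, limma), and 0.02 without that tumour.

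Xpc, which recognises distorted DNA at the start of the pathway, averaged -1.74 ± 0.62 in deficient, -1.57 ± 0.30 in control and -1.80 ± 0.43 in supplemented tumours (SD, n = 5 each). Supplemented minus control was -0.23 (interval -0.83 to 0.37, adjusted p = 1.00, limma). It turned to 0.20 with normexp background correction, and was -0.06 without supplemented replicate 4, -0.10 without control replicate 3 and -0.037 in the authors' deposited values. Its level in deficient replicate 4, where the probe was not well above background, was -2.83, against -1.61 to -1.34 in the other deficient tumours. Ercc1, a subunit of the nuclease that cuts on the 5' side, ran from 0.44 to 1.36, and its mean was 0.74 ± 0.36, 0.89 ± 0.27 and 0.85 ± 0.30 in deficient, control and supplemented tumours. The helicase Ercc3, which opens the DNA around a lesion, was the steadiest of all members. It averaged 3.33 ± 0.24, 3.41 ± 0.20 and 3.46 ± 0.14 in the same order.

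Base excision and single-strand break repair held the largest difference in size in each of the 3 comparisons, none of which passed the adjusted test. Of its 9 genes 2 were higher and 7 lower in deficient than in control tumours (median -0.06), and 4 were higher and 5 lower in supplemented than in control tumours (median -0.04). Polb, the polymerase that fills the gap after a damaged base is removed, measured 1.09, 0.64, 0.76, 0.48 and 0.62 in deficient tumours. In control tumours it measured 0.77, -0.01, 0.19, 0.03 and 0.22. In supplemented tumours it measured 0.54, 0.67, 0.79, -0.33 and -0.05. All 5 deficient tumours were above 4 of the 5 controls, and control replicate 1 overlapped them. Deficient minus control was 0.48 (interval -0.01 to 0.96, unadjusted p = 0.0531, adjusted p = 0.987, limma). The arrays sat on 4 slides that each held all diets, but only 1 or 2 tumours of a diet. Signs within slides, here and below, therefore rest on few tumours, and their agreement was not tested. Within each slide the Polb difference was positive, from 0.32 to 0.65. Small differences agreed in sign on all 4 slides too. For supplemented minus deficient these were Ercc1 and Parp1 (positive; 0.10 and -0.01 over all tumours) and Xpc (negative; -0.06). Deficient minus control for Polb was 0.29 in the authors' deposited values and 0.24 with normexp background correction. Supplemented minus deficient was -0.39 for Polb (interval -0.88 to 0.09, adjusted p = 0.741, limma), with supplemented replicates 4 and 5 below every deficient tumour. It was -0.23 without supplemented replicate 4 and -0.21 in the authors' deposited values.

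Mutyh, the glycosylase that removes adenine paired with 8-oxoguanine, measured -2.23, -1.68, -1.61, -2.26 and -1.32 in deficient tumours. The controls measured -2.01, -1.89, -1.73, -2.11 and -1.06, and the supplemented tumours -1.89, -2.63, -3.33, -2.12 and -2.03. Supplemented replicates 2 and 3 were lower than every other tumour, while the rest overlapped the other diets. Supplemented minus control was -0.64 (interval -1.25 to -0.03, unadjusted p = 0.0401, adjusted p = 1.00, limma), and supplemented minus deficient was -0.58 (interval -1.19 to 0.03, adjusted p = 0.713). The probe was well above background on 3 of 5 deficient, 4 of 5 control and 2 of 5 supplemented arrays. With normexp background correction both differences turned positive, to 0.18 and 0.060, and without supplemented replicate 3 the differences from control and deficient tumours were -0.41 and -0.35. In the authors' deposited values the differences were -0.11 from control and -0.10 from deficient tumours.

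Mpg, the glycosylase for alkylated purines, measured 2.03, 2.09, 2.05, 0.56 and 2.45 in deficient tumours. Controls measured 2.33, 1.80, 2.43, 2.29 and 2.26, and supplemented tumours 2.05, 2.18, 1.98, 2.34 and 1.78. Deficient replicate 4 was far below the rest and the other tumours overlapped across diets. Deficient minus control was -0.38 (interval -0.97 to 0.21, adjusted p = 0.987, limma), and -0.07 without that tumour. A second Mpg probe gave -0.35, but on it deficient replicate 4 measured -0.16 and the lowest tumour was deficient replicate 1 at -0.95. The 2 probes thus disagree on which tumour was low.

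Ogg1, the glycosylase for 8-oxoguanine, measured 1.25, 1.67, 1.21, 1.05 and 1.74 in deficient and 1.78, 1.04, 1.92, 1.93 and 1.33 in control tumours. Supplemented tumours lay closer together at 1.46, 1.62, 1.50, 1.41 and 1.47. Control and deficient tumours both fell into a higher and a lower range, which overlapped between the diets. Deficient minus control was -0.22 (interval -0.63 to 0.20, adjusted p = 0.987, limma), and -0.09 with array brightness as a covariate. Its values followed the brightness of the array, as described further on.

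Ung, which removes uracil from DNA, varied most between tumours of all members. It measured -3.60, -2.18, -0.92, -2.19 and -1.34 in deficient, -1.68, -2.96, -2.36, -1.28 and -1.60 in control and -1.64, -2.46, -2.30, -0.71 and -1.60 in supplemented tumours. High and low tumours occurred within each diet. The probe was not well above background in deficient replicates 1 and 4, control replicate 2 and supplemented replicate 3. The lowest levels, -3.60 and -2.96, were among these. Its mean was -2.05 ± 1.03, -1.98 ± 0.68 and -1.74 ± 0.69 (SD, n = 5 each), with a 95% interval of -0.74 to 1.21 for supplemented minus control. Lig1, the ligase that seals replication and long-patch repair nicks, measured 2.69, 2.78, 2.59, 2.51 and 3.40 in deficient tumours, 2.74, 2.40, 3.38, 2.95 and 3.05 in control tumours and 2.75, 2.42, 2.36, 3.52 and 2.52 in supplemented tumours. Each diet held at least 1 tumour near the top of the range. Supplemented minus control was -0.19 for Lig1 (interval -0.72 to 0.33, adjusted p = 1.00, limma), but -0.07 if control replicate 3 was omitted, -0.39 if supplemented replicate 4 was, and -0.73 with normexp background correction.

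The remaining base excision genes, Apex1, Xrcc1 and Parp1, were even across diets as processed here. The lowest values of supplemented minus control under any alternative were -0.50, -0.63 and -0.50, in that order. Apex1, the endonuclease that cuts at a base-free site, averaged 4.93 ± 0.31, 4.95 ± 0.31 and 5.10 ± 0.25 in deficient, control and supplemented tumours. Xrcc1, the scaffold of single-strand break repair, averaged 3.03 ± 0.25, 3.04 ± 0.09 and 3.00 ± 0.23. Parp1, the zinc-finger sensor of strand breaks, averaged 3.25 ± 0.32, 3.14 ± 0.26 and 3.23 ± 0.27. A second Parp1 probe gave the opposite sign for deficient minus control, -0.16 against 0.10, so no direction holds for that comparison. The signs also differed for supplemented minus deficient (0.27 against -0.01), but not for supplemented minus control (0.11 against 0.09).

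Mismatch repair rested on Pms2, a subunit of the complex that nicks the strand with the error. It measured 0.58, 0.80, 0.83, 0.86 and 0.90 in deficient, 0.68, 0.68, 1.22, 1.23 and 0.58 in control and 0.85, 1.14, 0.94, 1.39 and 1.16 in supplemented tumours. Deficient tumours were the most alike, and 4 of the 5 supplemented tumours lay above all of them. Supplemented minus deficient was 0.31 (interval -0.06 to 0.67, adjusted p = 0.729, limma), positive within each of the 4 slides (0.24 to 0.55). Supplemented minus control was 0.22 (interval -0.14 to 0.58, adjusted p = 1.00), also positive within each slide (0.18 to 0.36). With normexp background correction neither was positive, at -0.0096 and -0.050, and the difference from deficient tumours was 0.17 in the authors' deposited values. A second Pms2 probe, well above background on 4 arrays and too dim to be tested, went the other way on average. It measured -2.38, -1.72, -2.67, -3.19 and -2.23 in deficient tumours. Controls measured -2.49, -3.19, -2.03, -2.24 and -3.63, and supplemented tumours -2.94, -2.67, -3.52, -2.99 and -2.43.

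Double-strand break repair and damage signalling, 8 genes in all, had median differences of 0.04 (5 higher, 3 lower), 0.06 (6 higher, 2 lower) and -0.04 (3 higher, 5 lower) against control in deficient tumours, against control in supplemented tumours, and between supplemented and deficient tumours. Xrcc5, the large subunit of the Ku dimer that binds broken ends, measured -0.47, -0.73, -0.73, -0.38 and -0.80 in deficient tumours. Controls measured -0.57, -0.46, -0.26, -0.43 and -1.01, and supplemented tumours -0.41, -0.24, -0.50, -0.04 and -0.41. Supplemented replicates 2 and 4 were above all tumours of the other diets, and the rest overlapped. Supplemented minus deficient was 0.30 (interval -0.05 to 0.66, adjusted p = 0.729, limma) and supplemented minus control 0.22 (interval -0.13 to 0.58, adjusted p = 1.00). Each was positive within all 4 slides, but the difference from control was 0.11 without control replicate 5, its lowest tumour, and that from deficient tumours 0.090 in the authors' deposited values. Xrcc6, the other Ku subunit, averaged -0.20 ± 0.24, -0.32 ± 0.23 and -0.36 ± 0.28 in deficient, control and supplemented tumours, with a supplemented minus deficient difference of -0.16, of the opposite sign to that of its partner.

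The genes of the Mre11 complex, which tethers and trims broken ends, were even between diets as processed here. Supplemented minus control for Mre11 reached 0.34 at most under the alternatives. Rad50 averaged -1.17 ± 0.42, -1.22 ± 0.38 and -1.20 ± 0.26 in deficient, control and supplemented tumours. Mre11 averaged -1.70 ± 0.31, -1.72 ± 0.22 and -1.63 ± 0.17, and Nbn 1.75 ± 0.21, 1.63 ± 0.19 and 1.70 ± 0.48. Among the tumours that departed from these means were deficient replicate 4 and control replicate 2 for Rad50 (-0.49 and -0.55), deficient replicate 1 for Mre11 (-1.15) and supplemented replicate 4 for Nbn (0.94).

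Brca2, a tumour suppressor needed for homologous recombination, measured -0.28, -0.60, -2.20, -1.16 and -0.82 in deficient, -1.09, -1.02, -0.32, -1.35 and -1.24 in control and -1.73, -0.78, -1.33, -1.13 and -1.15 in supplemented tumours. The deficient diet held both the highest and the lowest tumour, and the probe was not well above background in the lowest. Deficient minus control was -0.01 (interval -0.67 to 0.65, adjusted p = 0.999, limma). That value depended on single tumours, being 0.29 without deficient replicate 3 and -0.19 without deficient replicate 1. A second Brca2 probe, well above background on 0 arrays and not tested, was higher on average in deficient than in control tumours.

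Damage signalling was represented by the kinases Atm, activated at double-strand breaks, and Chek2, its checkpoint target. Chek2 measured -1.38, -1.08, -1.03, -1.42 and -1.45 in deficient, -1.47, -2.34, -1.86, -0.91 and -1.65 in control and -1.61, -1.72, -2.21, -0.96 and -1.55 in supplemented tumours. All 5 deficient tumours lay above 4 of the 5 controls, and control replicate 4 was above all of them. Deficient minus control was 0.37 (interval -0.17 to 0.91, adjusted p = 0.987, limma), falling to 0.20 without control replicate 2, where the probe was not well above background, and to 0.15 in the authors' deposited values. Supplemented minus deficient was -0.33 for Chek2 (interval -0.87 to 0.20, adjusted p = 0.783, limma) and 0.048 with normexp background correction. It was -0.19 when supplemented replicate 3 was left out, -0.50 when supplemented replicate 4 was, and -0.049 in the authors' deposited values. Atm averaged -1.99 ± 0.22, -1.81 ± 0.35 and -1.65 ± 0.40 in deficient, control and supplemented tumours. Supplemented minus deficient was 0.34 for Atm (interval -0.12 to 0.79, adjusted p = 0.762, limma), with the probe well above background on 2 deficient and 4 supplemented arrays, and 0.11 in the authors' deposited values. A second Atm probe, well above background on 1 array and not tested, was not higher on average in supplemented tumours. On the tested Atm probe the comparison of deficient with control tumours was as follows. Deficient minus control was -0.18 (interval -0.64 to 0.28, adjusted p = 0.987, limma), and 0.095 without the 3 dimmest arrays.

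Mgmt, the protein that takes alkyl groups off guanine directly, measured 1.96, 2.15, 3.32, 2.79 and 2.85 in deficient tumours. In control tumours it measured 2.56, 2.15, 1.91, 3.90 and 3.20, and in supplemented tumours 3.28, 2.73, 3.44, 2.68 and 2.98. No supplemented tumour was below 2.68, while controls held both the highest and the lowest tumour, and the diets overlapped. Supplemented minus control was 0.28 (interval -0.46 to 1.01, adjusted p = 1.00, limma). Control replicates 3 and 4 bear on it, as leaving out the former gave 0.07 and leaving out the latter 0.57. It was -0.27 with normexp background correction.

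The SD of single tumours around the diet means exceeded every difference between diet means for Ung, Mgmt and Brca2, but not for Mutyh. The SD around the diet means was largest for Ung (0.81, above that of 93.7% of probes), Mgmt (0.60, 80.9%), Brca2 (0.53, 72.8%) and Mutyh (0.48, 66.2%). These 4 spanned 2.88, 2.00, 1.93 and 2.27 log2 units over the 15 tumours. For Ung, Brca2 and Mutyh the probe was not well above background in the lowest tumour, so their ranges reach into signal near background. The smallest SD belonged to Ercc3 (0.20, above that of 5.28% of probes), Xrcc1 (0.20, 6.33%), Xrcc5 (0.22, 9.51%) and Pms2 (0.23, 11.7%). The members' median SD was 0.33, beside 0.39 over all tested probes, and 8 of 23 were above the latter.

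Single tumours did not raise or lower all members together. Supplemented replicate 4 was the highest of the 15 tumours for 7 of the 23 genes and had the highest median deviation from the genes' own medians (0.26). It was also the lowest tumour for 2 genes, Polb and Nbn. Deficient replicate 5 had the most genes above their median (19 of 23), and deficient replicate 4 the fewest (5 of 23). Control replicate 2 had the lowest median deviation (-0.25). The arrays of deficient replicate 4 and control replicate 2 were 2 of the 3 dimmest and had the fewest members well above background (16 and 17), and the part of brightness in these low values was not tested.

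**Figure D3:**
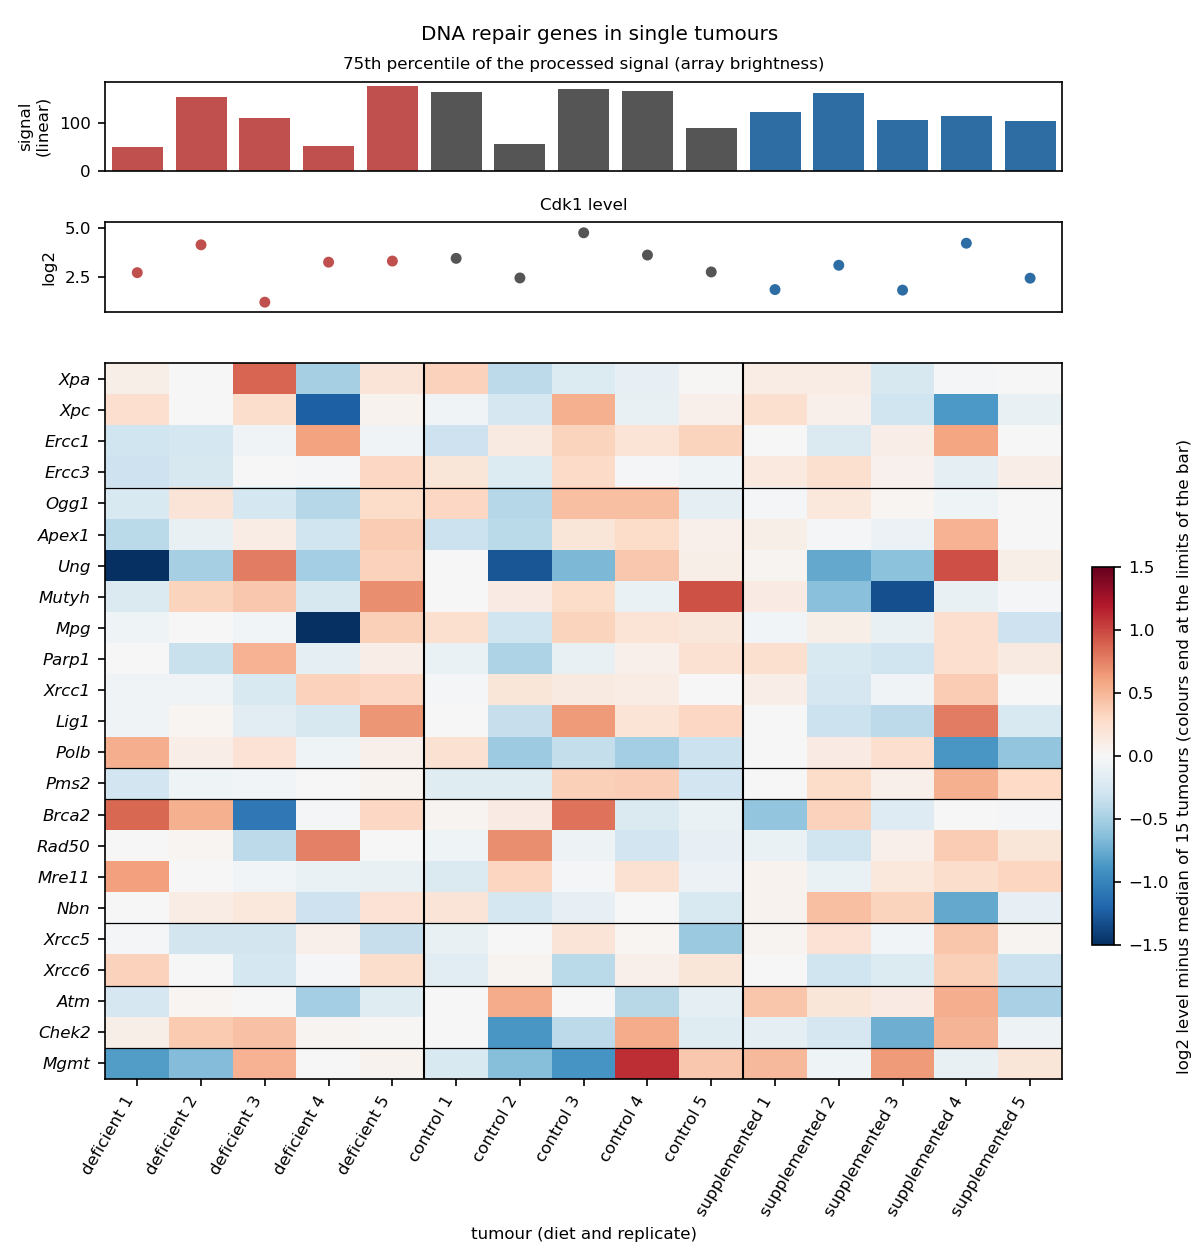
Brightness of each array as the 75th percentile of its processed signal (top, linear signal units), level of Cdk1 (middle, log2) and deviation of each DNA repair gene from its median over 15 tumours (bottom, log2). Columns are tumours by diet, rows are genes by repair route. Red and blue cells occur side by side within most columns, and supplemented 4 is the highest tumour for 7 genes.

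Several repair genes are made mainly in dividing cells, so the members were set against Cdk1, the kinase that drives entry into mitosis. Cdk1 was chosen after the values were seen, since no probe was matched to Mki67, the proliferation marker first intended. Its level ran from 1.20 in deficient replicate 3 to 4.77 in control replicate 3. The mean level of the 8 measured proliferation markers (of 11 listed) was -0.96 to 0.51 in deficient, -0.54 to 1.15 in control and -1.09 to 0.68 in supplemented tumours. Over the 15 tumours, 0 of 23 genes were correlated with Cdk1 at an adjusted p under 0.05 (permutation test, 100000 resamples, two-sided, Benjamini-Hochberg over 23 genes), and 0 were with p adjusted over 20970 probes without missing values, where 0.553% of probes passed. At an unadjusted p under 0.05 there were 3 of 23, beside 8.97% of those probes. By Spearman's rho there were 3 as well (Mpg, Lig1 and Ogg1, but not Brca2), beside 8.49%. With p adjusted over all probes there were again 0, beside 0.362%.

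By Pearson's r, Brca2 had the largest correlation with Cdk1 (r = 0.68, permutation p = 0.00547, adjusted p = 0.12; Spearman rho = 0.51, adjusted p = 0.255). It fell to 0.37 without deficient replicate 3 and control replicate 3, the tumours with the most extreme Cdk1 levels. Leaving out the extremes also narrows the range of Cdk1, which can lower r by itself. An r at least as large in size as that of Brca2 was found for 1.93% of probes. The second Brca2 probe, well above background on 0 arrays, ran the other way in these tumours. It was highest in deficient replicate 3 (-2.32) and lowest in control replicate 3 (-5.19). Lig1 followed with r = 0.64 (permutation p = 0.0104, adjusted p = 0.12; rho = 0.66, adjusted p = 0.103), and 0.57 without the same tumours. Ogg1 was the third by r, with r = 0.55 (adjusted p = 0.272) and 0.35 without them. The largest rho was that of Mpg (rho = 0.67, permutation p = 0.00803, adjusted p = 0.103), whose r was 0.23. Mgmt had the most negative value, r = -0.47 (permutation p = 0.0807, adjusted p = 0.464; rho = -0.51), and -0.24 without them. For Chek2 the change went the other way, from r = 0.26 (adjusted p = 0.594) to 0.77 without those tumours (adjusted p = 0.0497), the only member past the threshold there. Slides held too few tumours for a value each. With every level taken as its deviation from the slide mean, r was 0.77 for Brca2 (adjusted p = 0.0221), 0.69 for Lig1 (adjusted p = 0.0517) and -0.57 for Mgmt (adjusted p = 0.117). The permutation shuffled these deviations across all tumours without regard to the slide means removed, so these p-values may be too small. Normexp background correction removed the relation of Brca2 (r = -0.038) and that of Mgmt (r = 0.072) but not that of Lig1 (r = 0.66). In the authors' deposited values it was Lig1 that fell, with r = 0.39 (adjusted p = 0.419). There r was 0.72 for Brca2 (adjusted p = 0.0596) and -0.55 for Mgmt (adjusted p = 0.395).

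Because Brca2 and Lig1 had the largest r with Cdk1 and Mgmt the most negative, their promoters are shown, as the 250 bases upstream of the transcript start, from RefSeq (assembly GRCr8), 5' to 3' on the gene's strand. Motifs searched on both strands were the E2F site (TTCCCGC or TTCGCGC), the CCAAT box (CCAAT), the GC box (GGGCGG) and the cell cycle homology region (TTTGAA), and matches, none of which overlap in these windows, are in capitals. The sequences lie at chr12:4895197-4895446 (Brca2), chr1:83242920-83243169 (Lig1) and chr1:201140582-201140831 (Mgmt), all on the plus strand.
Brca2: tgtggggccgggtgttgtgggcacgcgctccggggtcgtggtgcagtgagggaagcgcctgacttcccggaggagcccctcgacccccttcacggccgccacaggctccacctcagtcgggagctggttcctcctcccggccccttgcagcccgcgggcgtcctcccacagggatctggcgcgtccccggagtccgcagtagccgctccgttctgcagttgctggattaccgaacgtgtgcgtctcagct
Lig1: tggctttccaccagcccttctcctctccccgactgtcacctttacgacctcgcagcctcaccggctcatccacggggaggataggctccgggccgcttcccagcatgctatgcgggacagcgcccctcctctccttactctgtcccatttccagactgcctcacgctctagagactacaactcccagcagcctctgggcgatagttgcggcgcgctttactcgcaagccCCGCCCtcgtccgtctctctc
Mgmt: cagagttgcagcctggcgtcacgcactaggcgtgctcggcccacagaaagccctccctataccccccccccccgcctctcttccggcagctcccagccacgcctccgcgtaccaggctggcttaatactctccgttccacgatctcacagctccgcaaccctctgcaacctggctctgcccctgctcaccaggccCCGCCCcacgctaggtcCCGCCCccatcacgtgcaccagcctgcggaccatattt
Lig1 held 1 GC box and Mgmt 2, all read from the other strand, and Brca2 held none of the motifs. None of these 3 windows matched the E2F letters. Among the 19 members with a promoter in the table (Xpa, Polb, Nbn and Chek2 had none there), 5 held an E2F match (Ercc1, Xpc, Atm, Rad50 and Ung), 6 a CCAAT box, 14 a GC box and 3 the cell cycle homology region. The shares over all 27457 promoters of that length were 4.75%, 34.3%, 32.4% and 16%. The members' promoters held a median of 18 CpG dinucleotides, against 6 over all promoters.

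Array brightness was set against the members too, a choice made after the values were seen. At an adjusted p under 0.05 over 24 tests (23 members and Cdk1), 2 of 23 members were correlated with log2 brightness by Pearson's r and 3 by Spearman's rho. With p adjusted over 20970 probes, 2 members passed by each measure, where 7.18% and 1.72% of probes did. At an unadjusted p under 0.05, 5 of 23 members passed by Pearson's r, beside 23.8% of probes, and 5 by Spearman's rho, beside 18.9%, so relations to brightness were common on these arrays and the members' count was near that background. The levels were scaled by the same 75th percentile that measures brightness. Ogg1 tracked it closely, with r = 0.89 (permutation p = 1e-05, the smallest the resamples can give; adjusted p = 0.00024) and rho = 0.87 (adjusted p = 0.0024), and 0.215% of probes had an r as large in size. Without the 2 dimmest arrays r was 0.90. Taken as deviations from slide means it was 0.90, and in the authors' deposited values 0.77 (adjusted p = 0.0192). The lowest Ogg1 levels were those of control replicate 2 (1.04) and deficient replicate 4 (1.05), both on dim arrays, and the highest those of control replicates 3 and 4 (1.92 and 1.93), both on bright ones.

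Mpg was the next, with r = 0.68 (adjusted p = 0.0176) and rho = 0.80 (adjusted p = 0.00792). Its r was 0.70 without the 2 dimmest arrays, where the adjusted p was 0.0805, and 0.63 in the authors' deposited values (adjusted p = 0.117). Ercc3 passed by rho alone (rho = 0.69, adjusted p = 0.0461; r = 0.65, adjusted p = 0.0691). Rad50 ran the other way without passing (r = -0.64, adjusted p = 0.0691; rho = -0.42, adjusted p = 0.296). Cdk1 itself had r = 0.37 with brightness (adjusted p = 0.349). Whether brightness reflects the scanner, the RNA or the tumour was not tested.

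**Figure D4:**
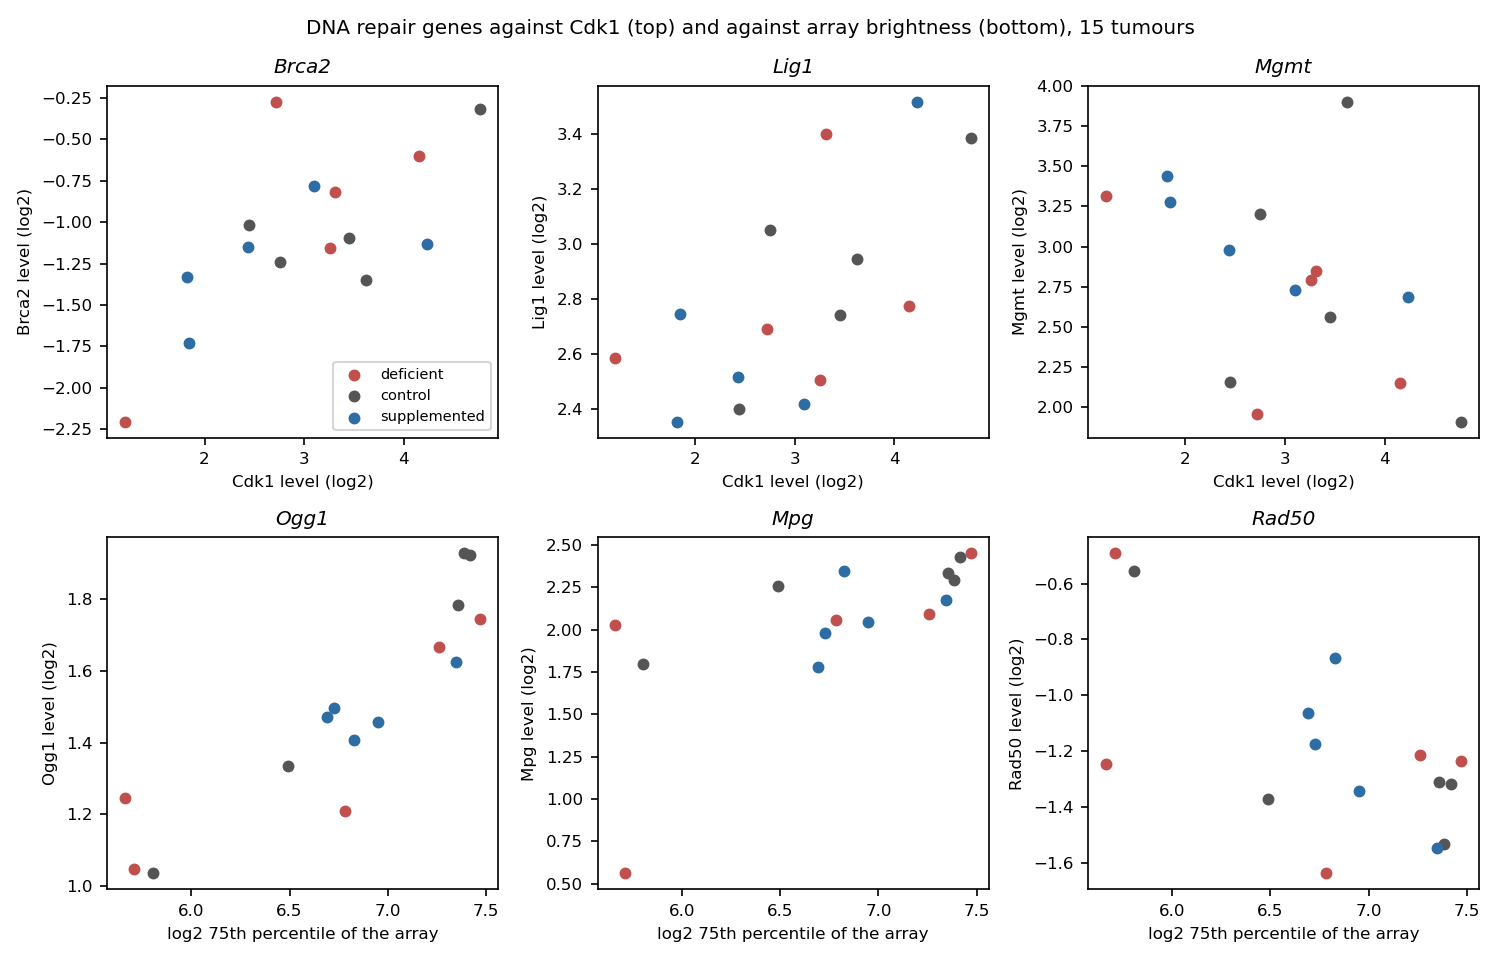
Levels of DNA repair genes in 15 tumours (vertical axes, log2) against the level of Cdk1 (top row, log2) for Brca2, Lig1 and Mgmt, and against log2 brightness of the array (bottom row) for Ogg1, Mpg and Rad50. Points are tumours, coloured by diet. Ogg1 rises along the brightness axis with r = 0.89, while Brca2 has r = 0.68 with Cdk1, and 0.37 without the tumours at both ends.

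Another 94 repair genes outside the list were looked up for comparison, of which 55 were measured and 0 passed the adjusted threshold in any comparison. At an unadjusted p under 0.05 there were 4 for deficient against control, 1 for supplemented against control and 2 for supplemented against deficient, beside 3.91%, 1.98% and 7.05% of all probes. Their median differences were -0.06 (21 higher, 34 lower), -0.01 (26 higher, 29 lower) and -0.01 (27 higher, 28 lower). Parp3, a break-responsive relative of Parp1, was the only 1 of the 55 with diets that did not overlap (0.39% of all probes), for deficient against control, at -2.17 ± 0.56 in deficient and -1.19 ± 0.38 in control tumours (difference -0.98, interval -1.61 to -0.35, adjusted p = 0.987, limma), with its probe well above background on 9 arrays. It was -0.55 without the 3 dimmest arrays, -0.19 in the authors' deposited values and -0.12 with normexp background correction. Gtf2h4, a subunit of the same complex as Ercc3, differed by -0.95 between those diets (adjusted p = 0.987, limma), and by -0.52 without deficient replicate 1, where its level was -3.42 and not well above background. In the authors' deposited values it differed by -0.34. On the other side stood Aplf, an end-joining scaffold, at 0.64 and Aptx, which clears blocked ends left by failed ligation, at 0.62 (adjusted p = 0.987 each), although Aptx was at 0.078 in the authors' deposited values. Supplemented minus control was 0.57 for Aplf, 0.42 for the end-trimming nuclease Dclre1c, -0.51 for Parp3 and -0.32 for Fance (adjusted p = 1.00 each, limma). Supplemented minus deficient was 0.54 for the mismatch gene Msh3 (adjusted p = 0.665), 0.36 for the translesion polymerase Polh (adjusted p = 0.717), -0.51 for Aptx (adjusted p = 0.701) and -0.27 for Parp2 (adjusted p = 0.783, limma), which was -0.11 without deficient replicate 1 and -0.64 with normexp background correction.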

How the data were processed

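One-colour (Cy3) Agilent rat arrays, 1 per tumour, were read from scanner files whose spot intensity the authors deposited as background-subtracted, detrended processed signal from Agilent Feature Extraction. Its version is 11.5.1.1 per the file headers, but 15.5 in the submitters' processing notes. A table of log2 values that the authors deposited, with a normalization not given in the sources used here, served as an alternative. Its column medians lay between 7.09 and 7.10. Spots marked as outliers were dropped, and the remaining spots of each probe were averaged. Each array's 75th percentile was subtracted on the log2 scale. Probes well above background on 5 or more arrays were kept, 21011 of 41012, with 40 missing values. Probes were named through RefSeq accessions (GRCr8 table), and 17502 (42.7%) matched a gene. Where more than 1 probe of a gene was tested, the one with the highest mean level is shown.

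The adequate diet was taken to be the group labelled "negative control". A label that describes mammary gland at postnatal day 21 was not followed, since the other labels and the design give tumours at 180 days. The 3 diets were fitted with limma 3.58.1 in R 4.3.3 (12 residual degrees of freedom, two-sided, adjusted over all tested probes), which was tested on simulated data. Relations used permutation in Python 3.11.15. Alternatives changed the background correction, scaling, filter, blocks, array weights and replicates. Normexp (offset 50) used median signals. All measured members are named with levels. For each comparison, the 3 higher and 3 lower members with the smallest p are given with intervals. The 2 higher and 2 lower other repair genes are given with differences, and with an interval only for Parp3 (deficient minus control). The 4 members with the largest and the smallest SD are also given. The members and lists were chosen with earlier results of these data known. Same-numbered replicates of different diets did not deviate together, and the numbers were not taken as pairs.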

Additional observations from a re-analysis of the deposited data

Results flagged for a closer look

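In groups of 5 tumours, single tumours were checked for a gap to the nearest other tumour that exceeded Dixon's 95% limit, for the 23 repair genes and Cdk1. Of 72 groups, 8 had such a tumour, where 3.6 are due by chance at 1 in 20. Deficient replicate 4 stood apart for 3 genes. Its Xpc level was -2.83 (the other deficient tumours -1.61 to -1.34), its Ercc1 level 1.36 (others 0.46 to 0.70) and its Mpg level 0.56 (others 2.03 to 2.45). The Xpc probe was not well above background in that tumour. On the second Mpg probe the same tumour measured -0.16, within the range of the other deficient tumours. Control replicate 2 stood apart for Mpg at 1.80 (other controls 2.26 to 2.43) and for Rad50 at -0.55 (others -1.53 to -1.31). Control replicate 1 stood apart for Polb at 0.77 (others -0.01 to 0.22). Supplemented replicate 4 stood apart for Apex1 at 5.52 (others 4.90 to 5.08), and deficient replicate 1 for Mre11 at -1.15 (others -1.88 to -1.77). Of these 8 tumour values, 6 came from the 3 dimmest arrays, and the part of brightness in them was not tested.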

How the results depend on the processing

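No DNA repair gene was called under any alternative. Over all probes, array weights gave 1 call for supplemented against deficient and 1 in the F test, and leaving out single tumours gave 0 to 1 for supplemented against deficient. Quantile normalization, the authors' deposited values, and normexp with quantile normalization (added after seeing the data) reversed none of the differences given with an interval, but the deposited values shrank those of dim genes, such as Mutyh (supplemented minus control, -0.11) and Parp3 (deficient minus control, -0.19). Without a filter on dim probes, the median of all probes shifted to 0.11 (deficient minus control) and -0.14 (supplemented minus deficient).

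Normexp with 75th percentile scaling moved the most, and the cause was not tested. Under it the medians were -0.50 for base excision genes (supplemented minus control), and 0.20 and 0.10 for double-strand break and signalling genes (supplemented minus control and minus deficient). Supplemented minus control reversed for Xpc (0.20), Mutyh (0.18), Pms2 (-0.050), Mgmt (-0.27), Fance (0.026) and Parp3 (0.21). Supplemented minus deficient reversed for Mutyh (0.060), Pms2 (-0.0096), Chek2 (0.048) and Aptx (0.16), and deficient minus control for Atm (0.043; also 0.095 without the 3 dimmest arrays). The r with Cdk1 reversed for Brca2 (-0.038) and Mgmt (0.072).

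Genes correlated with Cdk1 at an adjusted p under 0.05 numbered 0, but 11 with normexp, and 1 each with deviations from the slide mean, residuals on array brightness, or without the 2 tumours of extreme Cdk1 level. Genes correlated with brightness numbered 2, but 5 with normexp and 5 with slide deviations, and 1 each with quantile normalization, normexp with quantile normalization, deposited values, or without the 2 arrays of extreme brightness. Counts from slide deviations or brightness residuals rest on permutations that ignore what was removed, so they may be too high. The relations to Mki67 that had been planned were not run, for want of a matched probe.

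With the replicate number as a block, calls stayed at 0 in all comparisons, with 871, 438 and 1455 probes at an unadjusted p under 0.05 (822, 415 and 1482 without the block). Same-numbered tumours had a mean correlation of -0.0004 (-0.28 to 0.22) in their deviations, which gives no sign of pairing by number but cannot exclude it.

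Precision is limited by 5 arrays per diet and, for the 7 genes not well above background on every array, by signal near background.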
